A study of Mus musculus with 12 samples.

Results

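The genes described here are 33 genes of mitosis and the G2/M transition, of the 39017 genes counted in a series on the mouse gene Pogz in the 4T1 line. They were taken by symbol from a list of mitotic cyclins and kinases, partners of Aurora B, regulators of mitotic exit, kinesins, kinetochore proteins, spindle and cytokinesis proteins, and the proliferation genes Top2a, Mki67 and Foxm1. All 33 symbols matched a gene, and all 33 passed the filter on low counts in every comparison. The rule that lists them uses no measured value, but the list was chosen with earlier results of these data known.

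4T1 is a mouse mammary carcinoma line that serves as a model of triple-negative breast cancer (TNBC), a class without estrogen receptor, progesterone receptor or amplified HER2. RNA was sequenced from 3 tumors labelled POGZ KO (knockout) and 3 tumors labelled POGZ WT and titled VC, each grown from 50k cells placed in a mammary fat pad of a BALB/c mouse aged 8 weeks. The tumors were taken at 28 days and flash frozen. RNA was also sequenced from 3 KO-labelled and 3 VC-labelled cultures, all grown in DMEM with 10% FBS and lysed at 75% confluency. The labels give neither the targeted exon nor whether the KO cells are 1 clone, and they do not say that the 3 cultures of a group were separate passages, so p-values measure the spread between these libraries. The host keeps its own blood, vessel and connective tissue cells, whose RNA is part of each tumor library.

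Mitosis starts when the kinase Cdk1, bound to a B cyclin, becomes active. Aurora and Polo kinases then build the spindle, kinetochores couple chromosomes to it, and a checkpoint holds back the anaphase-promoting complex until every chromosome is attached. The genes for these proteins are transcribed together late in the cell cycle, through a complex of MuvB with B-Myb and FoxM1 that binds a promoter element called the cell cycle genes homology region (CHR), often beside CCAAT boxes bound by NF-Y. In resting cells the DREAM complex, with other subunits on the same MuvB core, represses them through the same element. The protein POGZ is known from human cells as a partner of heterochromatin protein HP1 that helps it leave mitotic chromosome arms and helps activate Aurora B.

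The promoter stretches below are shown because CHR and CCAAT letters are what most of the members share. RefSeq promoters, 250 bases before to 50 bases after an annotated start, were on hand for 27 of the 33 members (GRCm38.p6). The members without one are Aurkb, Ccna2, Foxm1, Incenp, Kif20a and Tpx2. Each stretch is 150 bases 5′ to 3′ that end just before a RefSeq start, in lower case, with capitals for the CHR in its forms TTTGAA and, less often, TTTAAA. Capitals also mark CCAAT, and both strands were searched. On the other strand CCAAT reads as ATTGG, and the first form of the CHR as TTCAAA. Cdc20 at chr4:118437344-118437493 (minus strand), Ccnb1 at chr13:100786487-100786636 (minus strand) and Nusap1 at chr2:119618148-119618297 (plus strand) stand for the members with the largest fall and rise in culture among these 27 and for cyclin B1. Cdk1 at chr10:69352913-69353062 (minus strand), Mki67 at chr7:135716380-135716529 (minus strand), Prc1 at chr7:80294326-80294475 (plus strand) and Ube2c at chr2:164769779-164769928 (plus strand) were added after the matches were seen, as examples of several elements in 1 stretch. For some of these genes GENCODE M21 also lists transcripts that start within the stretch.
Cdc20: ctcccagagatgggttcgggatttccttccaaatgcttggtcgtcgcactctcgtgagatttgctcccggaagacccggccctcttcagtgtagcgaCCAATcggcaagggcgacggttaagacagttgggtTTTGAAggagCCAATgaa
Cdk1: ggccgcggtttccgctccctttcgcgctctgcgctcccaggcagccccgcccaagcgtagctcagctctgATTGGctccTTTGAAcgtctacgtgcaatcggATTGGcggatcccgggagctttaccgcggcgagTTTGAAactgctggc
Ccnb1: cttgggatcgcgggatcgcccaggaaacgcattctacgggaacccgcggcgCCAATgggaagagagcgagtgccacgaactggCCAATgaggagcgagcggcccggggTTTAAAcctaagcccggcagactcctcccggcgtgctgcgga
Mki67: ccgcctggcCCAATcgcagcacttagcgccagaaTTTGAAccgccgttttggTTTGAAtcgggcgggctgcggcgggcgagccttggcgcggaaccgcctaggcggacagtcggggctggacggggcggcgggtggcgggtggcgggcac
Prc1: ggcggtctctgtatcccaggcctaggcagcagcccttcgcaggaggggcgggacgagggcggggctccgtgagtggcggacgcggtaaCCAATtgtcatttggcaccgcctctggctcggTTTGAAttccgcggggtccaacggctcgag
Ube2c: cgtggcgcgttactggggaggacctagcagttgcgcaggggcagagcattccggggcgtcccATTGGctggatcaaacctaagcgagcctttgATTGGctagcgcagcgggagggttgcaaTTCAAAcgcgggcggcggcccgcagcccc
Nusap1: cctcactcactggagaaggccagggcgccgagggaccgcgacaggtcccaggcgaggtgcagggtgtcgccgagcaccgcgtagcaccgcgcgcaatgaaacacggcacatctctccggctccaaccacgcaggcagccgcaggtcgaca

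TTTGAA was present in the window of 21 of 27 members (77.8%), against 20.2% of 27025 genes with a promoter in the table. TTTAAA was present in 9 members (33.3%), against 14.9% of all genes. CCAAT was present in 21 members (77.8%), against 41.1% of all genes. Either form of the CHR stood in 24 members (88.9%), against 30.6% of all genes, and a CHR together with CCAAT in 20 members (74.1%), against 12.2%. The members with neither form of the CHR were Bub1, Nuf2 and Nusap1, and of these Bub1 had CCAAT. In the Cdk1 stretch, CCAAT letters on the other strand stand shortly before TTTGAA in 2 places, and Ccnb1 has the TTTAAA form of the CHR behind 2 CCAAT boxes. Over the first table entry of each gene, the 37 CHR matches had a median distance of -12.5 bases from the start, and the 53 CCAAT matches lay further upstream, with a median of -76 bases. These letters are a description of the windows. No binding was measured.

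**Figure D1:**
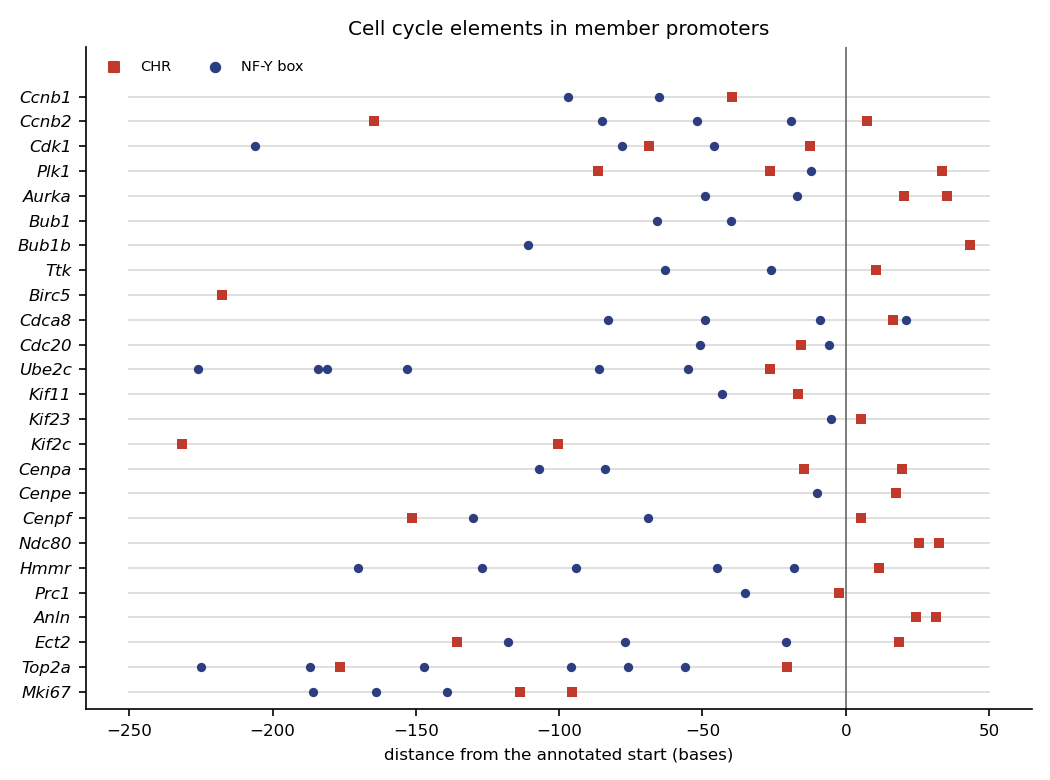
CHR letters (red squares) and CCAAT letters (NF-Y boxes, blue dots) by distance in bases from the annotated start, 1 row per member, in the first promoter entry of the 25 members that held either. CHR letters sit near the start, with 32 of 37 between 150 bases before and 50 bases after it, and CCAAT letters sit mostly upstream of it, with 1 match of Cdca8 after it.

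Library totals ran from 12128993 to 13043831 counts in the KO-labelled and from 4712001 to 8338828 in the VC-labelled tumors, and from 14724518 to 21863223 in the KO-labelled and from 17714560 to 18643217 in the VC-labelled cultures. Levels are CPM, the counts of a gene scaled by the total of its library. Every member had a usable count in every library, with the largest spread in the tumors: the median coefficient of variation over members was 39.9% in KO-labelled tumors, 39.4% in VC-labelled tumors, 2.46% in KO-labelled cultures and 5.51% in VC-labelled cultures. Pogz RNA went against its label. It had 68.4, 67.8 and 68.6 CPM in the KO-labelled cultures, against 50.9, 52.0 and 48.1 CPM in the VC-labelled cultures, a log2 fold change of 0.45 ± 0.04 (SE, adjusted p = 3.66e-06 in edgeR). In tumors the log2 fold change of Pogz was 0.11 ± 0.20 (adjusted p = 0.944). RNA can remain from an edited gene, so this does not measure the protein, and every direction below is between libraries as labelled.

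Between the KO-labelled and VC-labelled cultures, mitotic genes did not move as 1 block. In edgeR at an adjusted p under 0.05, 17 of 33 members fell, 7 rose and 9 did not pass. Over all 15705 genes tested, 24.9% fell and 23% rose, 47.9% in either direction. The median log2 fold change was -0.11 over the members and -0.01 over all genes. The range ran from -0.79 in Foxm1 to 0.26 in Nusap1. KO-labelled values lay wholly below the VC-labelled ones for 19 members and wholly above them for 8, and the groups overlapped for 6; over all genes tested these shares were 29.8% below and 25.8% above. With tumors and cultures in 1 fit, which takes 1 spread from both, no member passed in either direction and 1 had an unadjusted p under 0.05. Over all 18419 genes tested in that fit, 8.15% were called and 4010 had an unadjusted p under 0.05 in edgeR.

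**Figure D2:**
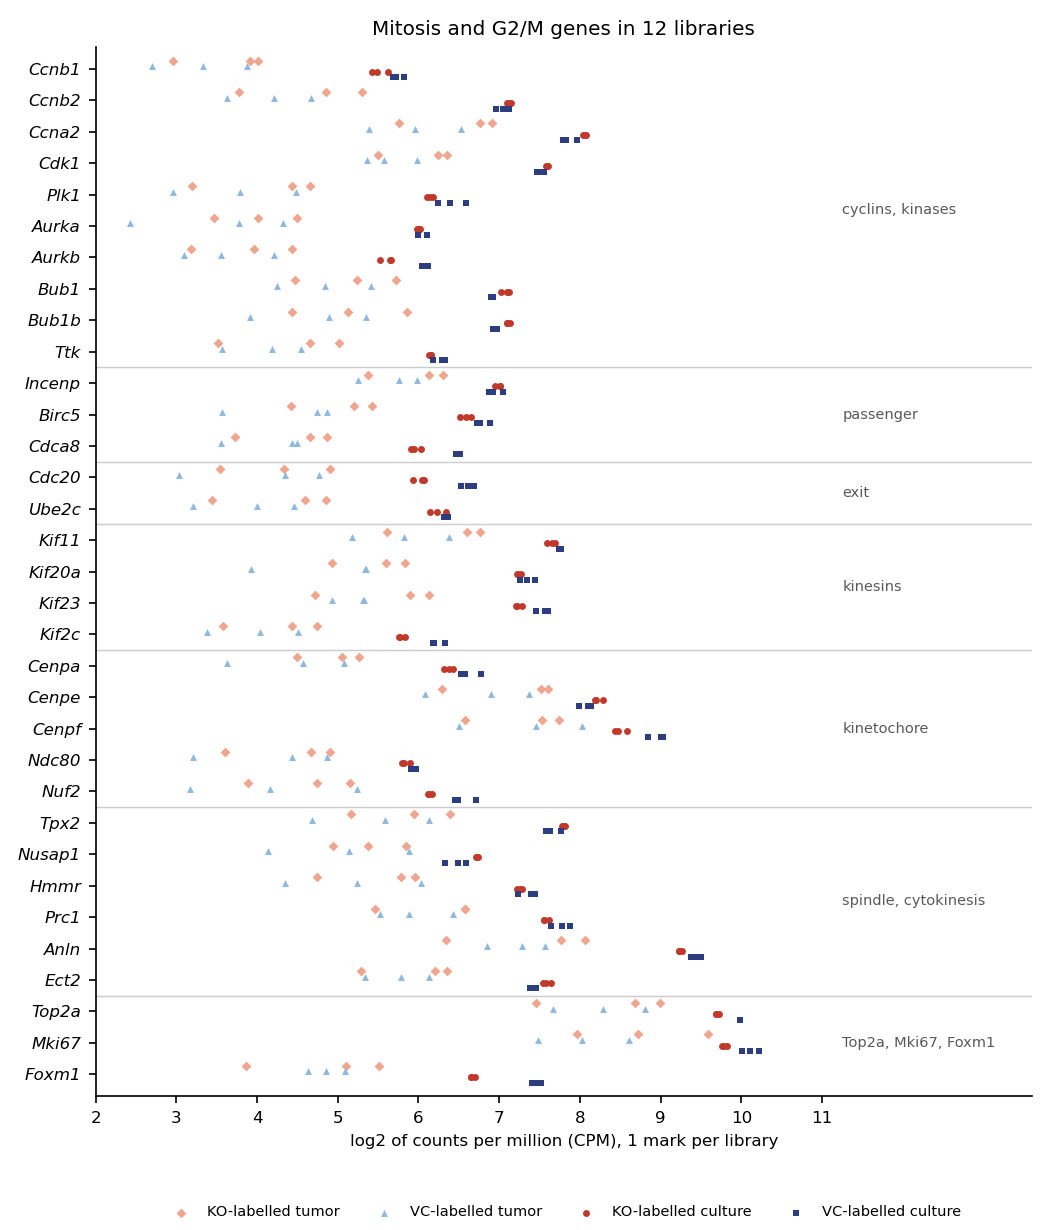
Level of each of the 33 members in each of the 12 libraries as log2 CPM, 1 mark per library, with KO-labelled and VC-labelled tumors and cultures in 4 colors. Every tumor lies below every culture of the same label for all 33 members, and within cultures the KO-labelled and VC-labelled marks are close together.

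Foxm1, the forkhead factor that switches on late cell cycle genes (chr6:128362967-128376146, plus strand on GRCm38), had the largest difference of the members. It had 101, 104 and 100.1 CPM in the KO-labelled cultures, against 183, 177 and 170.1 CPM in the VC-labelled cultures. No library of one label reached the other, and the log2 fold change was -0.79 ± 0.04 (SE; adjusted p = 1.9e-08, edgeR). Mki67, whose protein coats mitotic chromosomes and is the usual marker of dividing cells (chr7:135689784-135716361, minus strand), fell as well. It had 909, 882 and 864 CPM in the KO-labelled cultures, against 1102, 1189.9 and 1031 CPM in the VC-labelled cultures, a log2 fold change of -0.32 ± 0.05 (adjusted p = 0.000258). Top2a, the topoisomerase that untangles sister chromatids (chr11:98992943-99024189, minus strand), had 843, 821 and 821 CPM in the KO-labelled cultures, against 1015, 1015 and 1011 CPM in the VC-labelled cultures. That is a log2 fold change of -0.28 ± 0.04 (adjusted p = 6.25e-05). Per kilobase of exon, Top2a was the most abundant member in culture, with Mki67 and Ccnb2 next to it: Top2a had a mean of 91.9 CPM per kilobase in KO-labelled and 112 in VC-labelled cultures, and Mki67 had 87.95 in KO-labelled and 110.1 in VC-labelled cultures. On the same scale Ccnb2 had 90.9 in KO-labelled cultures, above Mki67, and 86.1 in VC-labelled cultures, below it. Ndc80 was the least abundant on that scale, at 8.81 in KO-labelled and 9.38 in VC-labelled cultures.

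Among the 10 cyclins and mitotic kinases, 3 rose and 4 fell, where 23% of all genes tested rose and 24.9% fell. Ccna2, cyclin A2 of S and G2 phase (chr3:36564865-36572150, minus strand), rose and Ccnb1, cyclin B1 of mitotic entry (chr13:100778650-100786570, minus strand), fell. Ccna2 had 267, 269 and 263 CPM in the KO-labelled cultures, against 250.4, 221 and 228 CPM in the VC-labelled cultures, a log2 fold change of 0.20 ± 0.05 (adjusted p = 0.00425). Ccnb1 had 49.1, 44.9 and 42.8 CPM in the KO-labelled cultures, against 51.3, 52.7 and 56.7 CPM in the VC-labelled cultures, a log2 fold change of -0.23 ± 0.06 (adjusted p = 0.00884). Without KO-labelled culture 3 the adjusted p of Ccnb1 was 0.0697, and the other 5 omissions kept its call. Ccnb2, cyclin B2, had 137, 139 and 142 CPM in the KO-labelled cultures, against 139, 124 and 133 CPM in the VC-labelled cultures, and its groups overlapped. Its log2 fold change of 0.09 ± 0.05 did not pass (adjusted p = 0.145), except without VC-labelled culture 1, where the adjusted p was 0.0221. Cdk1, the kinase that both B cyclins activate (chr10:69335146-69352938, minus strand), had 195, 192 and 191 CPM in the KO-labelled cultures, against 178, 177 and 188 CPM in the VC-labelled cultures. The groups of Cdk1 did not overlap, but its log2 fold change of 0.10 ± 0.04 missed the threshold (adjusted p = 0.0604). It passed as higher without VC-labelled culture 3 (adjusted p = 0.0157), with the size factors of DESeq2 in edgeR (0.0430), with a stricter filter (0.0427) and in limma-voom (0.0493), and as lower relative to its neighbouring genes (0.0184). The cyclins and their kinase thus lay on both sides of 0.

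The other mitotic kinases split too. Aurkb, the kinase of the chromosomal passenger complex that corrects faulty attachments (chr11:69045647-69051664, plus strand), had 46.1, 50.3 and 50.6 CPM in the KO-labelled cultures, against 67.9, 66.03 and 69.6 CPM in the VC-labelled cultures. It fell by 0.46 ± 0.05 on the log2 scale (adjusted p = 6.87e-06). Aurka, its relative at the spindle poles, had 63.3, 64.6 and 64.4 CPM in the KO-labelled cultures, against 68.6, 69.1 and 63.6 CPM in the VC-labelled cultures, with overlapping groups and a log2 fold change of -0.06 ± 0.04 (adjusted p = 0.29). Plk1, the Polo kinase of mitotic entry and exit, had 68.95, 70.9 and 72.4 CPM in the KO-labelled cultures, against 96.3, 84.00 and 75.7 CPM in the VC-labelled cultures, a log2 fold change of -0.26 ± 0.07 (adjusted p = 0.0077). Of the checkpoint kinases, Bub1 and Bub1b, which encodes BubR1, rose and Ttk, which encodes Mps1, fell. Bub1 had 136, 139 and 129.6 CPM in the KO-labelled cultures, against 121, 121 and 119 CPM in the VC-labelled cultures, a log2 fold change of 0.17 ± 0.04 (adjusted p = 0.00315). Bub1b had 137, 136 and 140.2 CPM in the KO-labelled cultures, against 122, 125 and 124 CPM in the VC-labelled cultures, a log2 fold change of 0.16 ± 0.04 (adjusted p = 0.0026). The groups of both genes were apart by a narrow margin. Ttk had 71.4, 71.2 and 69.8 CPM in the KO-labelled cultures, against 80.1, 78.04 and 72.7 CPM in the VC-labelled cultures, and its log2 fold change of -0.11 ± 0.04 lay at the threshold (adjusted p = 0.0497). The call of Ttk was lost when any 1 of KO-labelled cultures 1, 2 and 3 (adjusted p = 0.112, 0.115 and 0.214) or VC-labelled cultures 1 and 2 (0.210 and 0.152) was left out, and with the size factors of DESeq2 in edgeR (0.0764), without a filter (0.0806), with a stricter filter (0.0514), in DESeq2 (0.235) and in limma-voom (0.0606).

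The partners of Aurora B in the passenger complex are Incenp, Birc5, which encodes survivin, and Cdca8, which encodes borealin. Cdca8 (chr4:124918465-124939311, minus strand) had 61.4, 59.9 and 65.6 CPM in the KO-labelled cultures, against 91.2, 88.7 and 88.4 CPM in the VC-labelled cultures, a log2 fold change of -0.51 ± 0.04 (adjusted p = 1.38e-06). Birc5 had 101, 96.6 and 91.5 CPM in the KO-labelled cultures, against 118, 109 and 106 CPM in the VC-labelled cultures, a log2 fold change of -0.20 ± 0.05 (adjusted p = 0.00698), and without KO-labelled culture 3 the adjusted p was 0.0633. Incenp, the scaffold of the complex, had overlapping groups at 129, 123 and 129 CPM in KO-labelled against 117, 132 and 121 CPM in VC-labelled cultures, and its log2 fold change was 0.05 ± 0.05 (adjusted p = 0.434). So 3 of the 4 genes of the complex, Aurkb included, were lower in KO-labelled cultures, where 24.9% of all genes tested fell. Relative to their neighbouring genes, Aurkb and Cdca8 still fell, at -0.36 and -0.17 (adjusted p = 7.7e-05 and 0.00996). On that scale Birc5 did not pass, at -0.08 (adjusted p = 0.248), and Incenp rose, at 0.14 (adjusted p = 0.036). With the median of its chromosome taken out, Birc5 still fell, at -0.16 (adjusted p = 0.0301). Of the genes of mitotic exit, Cdc20, the activator of the anaphase-promoting complex that the checkpoint holds (chr4:118432901-118437352, minus strand), had 61.1, 67.2 and 65.7 CPM in the KO-labelled cultures, against 92.2, 98.1 and 103 CPM in the VC-labelled cultures. This gave a log2 fold change of -0.59 ± 0.05 (adjusted p = 1.38e-06), the second largest fall of the members. Ube2c, a ubiquitin-conjugating enzyme of the same complex, had 70.9, 74.9 and 81.3 CPM in the KO-labelled cultures, against 82.2, 81.2 and 79.9 CPM in the VC-labelled cultures. Those groups overlapped, and the log2 fold change of Ube2c was -0.09 ± 0.05 (adjusted p = 0.154; 0.0466 without KO-labelled culture 3).

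All 4 mitotic kinesins had negative fold changes, and 2 of them passed. Over all genes tested, the median log2 fold change was -0.01 and 24.9% fell. Kif23, the motor of the central spindle, had 148, 149 and 156 CPM in the KO-labelled cultures, against 195, 190.04 and 175 CPM in the VC-labelled cultures, a log2 fold change of -0.30 ± 0.05 (adjusted p = 0.000156). Kif2c, which removes tubulin from microtubule ends at centromeres, had 54.1, 54.5 and 57.1 CPM in the KO-labelled cultures, against 80.2, 72.7 and 72.9 CPM in the VC-labelled cultures, a log2 fold change of -0.44 ± 0.05 (adjusted p = 1.28e-05). Kif11, the motor that pushes spindle poles apart, had groups that did not overlap, at 206, 202 and 193 CPM in KO-labelled against 216, 214 and 217 CPM in VC-labelled cultures. The log2 fold change of -0.10 ± 0.04 missed the threshold (adjusted p = 0.0603; 0.0456 in limma-voom). Kif20a, a motor of cytokinesis, had 154, 149 and 149.98 CPM in the KO-labelled cultures, against 175, 163 and 153 CPM in the VC-labelled cultures, with a log2 fold change of -0.11 ± 0.05 (adjusted p = 0.0853; 0.0232 without VC-labelled culture 3). Kif20a is also the member whose counts are least certain, since 29.3% of its exon bases lie opposite exons of Cdc23 and the strand setting of the counting is not given in the sources used here. The same holds for smaller shares of the exon bases of Ube2c (22.8% opposite Tnnc2), Ccna2 (12.5% opposite Exosc9) and Prc1 (11.1% opposite Rccd1). The total counts of these opposite genes were 45 for Tnnc2, 12873 for Exosc9 and 860 for Rccd1, against 13630 for Cdc23. Reads of Ccnb1 and Ccnb2 can be shared with their pseudogenes Ccnb1-ps and Ccnb2-ps, which carried counts of their own.

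Of the 5 kinetochore genes, 3 fell, 1 rose and 1 did not pass, where 24.9% of all genes tested fell and 23% rose. Cenpf, a large protein of the outer kinetochore, had 384, 354 and 347 CPM in the KO-labelled cultures, against 512, 523 and 458 CPM in the VC-labelled cultures, a log2 fold change of -0.45 ± 0.06 (adjusted p = 2.77e-05). Nuf2, a subunit of the Ndc80 complex that binds microtubules, had 72.02, 70.2 and 69.2 CPM in the KO-labelled cultures, against 105, 89.6 and 87.4 CPM in the VC-labelled cultures, a log2 fold change of -0.41 ± 0.06 (adjusted p = 0.000162). Cenpa, the histone H3 variant that marks the centromere, had 86.3, 79.7 and 83.5 CPM in the KO-labelled cultures, against 92.3, 95.4 and 109 CPM in the VC-labelled cultures, a log2 fold change of -0.24 ± 0.06 (adjusted p = 0.00555). Ndc80, the partner of Nuf2 in that complex, had a smaller difference at 59.5, 56.7 and 55.3 CPM in KO-labelled against 62.5, 59.8 and 60.5 CPM in VC-labelled cultures. Its groups did not overlap, and its log2 fold change of -0.08 ± 0.05 did not pass (adjusted p = 0.148). Cenpe, a kinesin of the kinetochore that brings chromosomes to the spindle equator, was the member of this set that rose. It had 311, 293 and 292 CPM in the KO-labelled cultures, against 282, 274 and 253 CPM in the VC-labelled cultures, a log2 fold change of 0.16 ± 0.05 (adjusted p = 0.0162; 0.054 without KO-labelled culture 1).

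In the spindle and cytokinesis set of 6 genes, 3 rose and 2 fell, where 23% of all genes tested rose and 24.9% fell. Nusap1, a microtubule-bundling protein at the spindle (chr2:119618298-119651244, plus strand), had the largest rise of the members. It had 105, 106 and 106 CPM in the KO-labelled cultures, against 96.02, 89.5 and 80.2 CPM in the VC-labelled cultures, a log2 fold change of 0.26 ± 0.06 (adjusted p = 0.00161). Ect2, the exchange factor that turns on RhoA for the cleavage furrow (chr3:27097222-27153878, minus strand), had 199, 186 and 192 CPM in the KO-labelled cultures, against 167, 169.9 and 175 CPM in the VC-labelled cultures, a log2 fold change of 0.18 ± 0.04 (adjusted p = 0.00354). Tpx2, which activates Aurora A on the spindle, had 223, 224 and 219 CPM in the KO-labelled cultures, against 217, 198 and 191 CPM in the VC-labelled cultures, and the gap between the groups was small. Its log2 fold change was 0.14 ± 0.05 (adjusted p = 0.0231), and the call was lost without KO-labelled culture 2 (0.0736) or VC-labelled culture 2 or 3 (0.0884 and 0.0637). Anln, anillin of the contractile ring, had 613, 601 and 599 CPM in the KO-labelled cultures, against 723, 701 and 665 CPM in the VC-labelled cultures, a log2 fold change of -0.20 ± 0.04 (adjusted p = 0.00192). Prc1, which bundles the central spindle, had 188, 196 and 188 CPM in the KO-labelled cultures, against 234, 220.1 and 200.4 CPM in the VC-labelled cultures, a log2 fold change of -0.19 ± 0.05 (adjusted p = 0.00943; 0.0568 without KO-labelled culture 3). Hmmr, a spindle-associated hyaluronan receptor, had overlapping groups at 156, 154 and 149 CPM in KO-labelled against 173, 168 and 149.9 CPM in VC-labelled cultures. The log2 fold change of Hmmr was -0.09 ± 0.05 (adjusted p = 0.162; 0.0162 without VC-labelled culture 3).

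On chromosomes 1, 2, 3, 4 and 6, the direction of a member in culture mostly went with its chromosome. The exceptions were Aurka and Ube2c on chromosome 2, which were below 0 and did not pass. All 7 members that rose lie on chromosomes 2 and 3 (Bub1, Bub1b, Nusap1 and Tpx2 on chromosome 2, and Ccna2, Cenpe and Ect2 on chromosome 3). The median log2 fold change of all genes of a mean log2 CPM of at least 3 was 0.25 on chromosome 2 and 0.33 on chromosome 3. All 6 members on chromosomes 1, 4 and 6 fell, with log2 fold changes of -0.41 to -0.79, and the medians of all genes there were -0.12, -0.28 and -0.45. On the other chromosomes 11 of 18 members fell and none rose, with a median of -0.19 over these 18. Of those that fell, Cenpa lies on chromosome 5, where the median of all genes was 0.10. Kif23, Anln and Ttk lie on chromosome 9, where it was 0.03, and Ccnb1 on chromosome 13, where it was 0.0006. The rest lie on chromosomes 7 and 11, where it was -0.05 and -0.04. Most members had the sign of the genes beside them: 26 of 33 had the sign of the median of their 24 nearest genes, and so did 20 of the 24 that passed. This count was not made over all genes, so it is not a trait of the members. Of all genes above the same level, 84.0% were higher on chromosome 2, 89.4% on chromosome 3, 16.4% on chromosome 4 and 7.33% on chromosome 6. Whether the KO-labelled and VC-labelled cells differ in chromosome number was not tested. Pogz itself lies on chromosome 3.

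When the median of its chromosome was taken out of each gene, no member rose and 20 fell, where 19.7% of all genes tested rose and 20.5% fell, and 30 of 33 fold changes were negative. Of the 17 members that fell, 16 still did, Prc1 being the exception (adjusted p = 0.0533), and the median over the members was -0.16. Cenpe and Ect2 then fell, at -0.17 and -0.15 (adjusted p = 0.0128 and 0.0146). Aurka and Ube2c, which lie on chromosome 2 and had not passed, fell as well, at -0.30 and -0.33 (adjusted p = 0.000126 and 0.000158). The other 5 members that had risen no longer passed: Bub1 stood at -0.07, Bub1b at -0.08, Ccna2 at -0.13, Tpx2 at -0.10 and Nusap1 at 0.02. Foxm1 lies where its neighbours were lowest, with a median of -0.57 over its 24 nearest genes. It was still lower relative to its chromosome, at -0.34 (adjusted p = 3.46e-05), and relative to its neighbours, at -0.22 (adjusted p = 0.00102). Both kinds of median entered the fits as fixed values. The p-values with them, for all members, thus measure the spread between libraries and not the spread among the genes of a chromosome or neighbourhood.

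With the median of the 24 nearest genes taken out instead, an alternative chosen after seeing the data, 18 members fell and 1 rose, where 19.4% of all genes tested fell and 18.5% rose, and 31 of 33 fold changes were negative with a median of -0.14. The member that rose was Incenp, at 0.14 (adjusted p = 0.036). Of the 17 members that fell, 12 still did under both offsets. The losses under the offset by neighbours were Ccnb1 (-0.12), Birc5 (-0.08), Kif2c (-0.06), Cenpa (-0.15) and Prc1 (-0.13). Cdc20, which had the second largest fall, stood at -0.15 (adjusted p = 0.029), and Cdca8 at -0.17 (adjusted p = 0.00996). Aurkb had the lowest value on both scales, at -0.42 by chromosome and -0.36 by neighbours (adjusted p = 2.26e-05 and 7.7e-05). Mki67 changed little between the scales, at -0.26 by chromosome and -0.28 by neighbours.

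**Figure D3:**
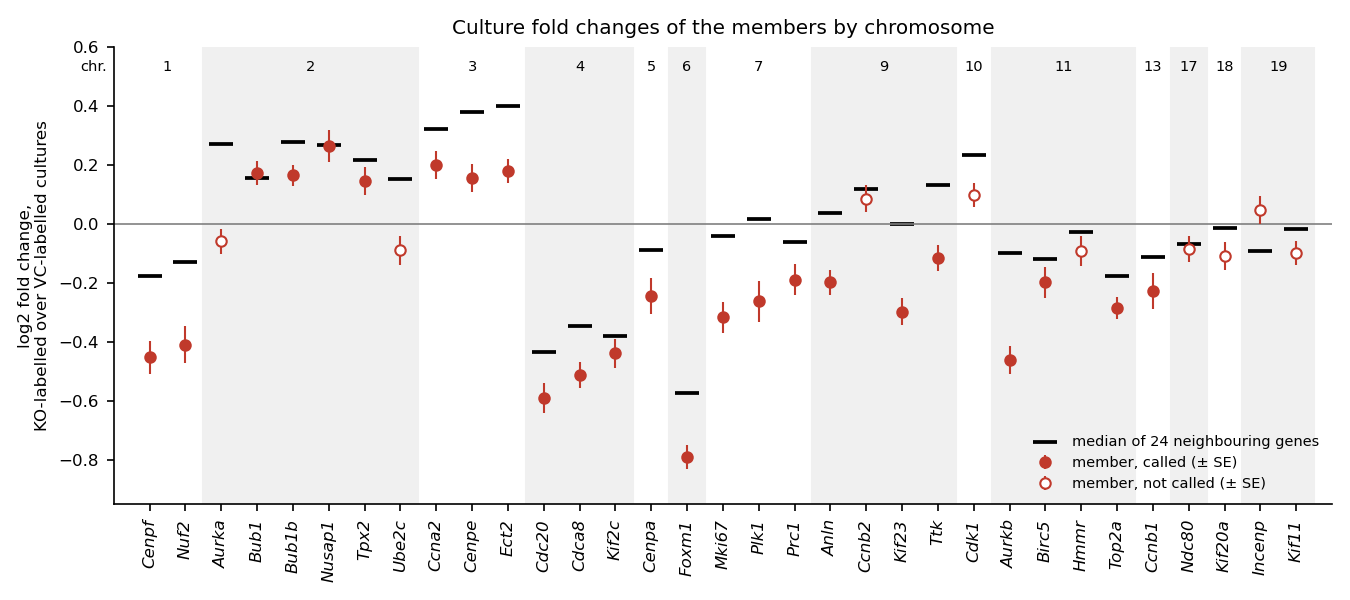
Log2 fold change of each member between KO-labelled and VC-labelled cultures with its SE, members in order of chromosome, filled where called, beside a bar at the median of its 24 nearest genes. Members on chromosomes 2 and 3 sit above 0 except Aurka and Ube2c, members on chromosomes 1, 4 and 6 sit between -0.41 and -0.79, and 31 of 33 lie below the median of their nearest genes.

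Other genes of the mitotic pathway moved both ways in the same comparison, as all genes did. Of 134 further genes in 10 lists, from the anaphase-promoting complex to the regulators of mitotic genes, 27 rose and 54 fell in KO-labelled cultures. Over all 15705 genes tested, 23% rose and 24.9% fell. These shares are the measure for each list in this and the next paragraph. Condensin, which compacts chromosomes, had 4 of 8 genes lower and none higher, with Ncapd2 at -0.62 ± 0.04 and Smc2 at -0.37 ± 0.05 on the log2 scale. Of the other mitotic kinesins and their partners 6 of 9 fell and 1 rose, with Kif14 of the midbody at -0.36 ± 0.04 and Kif18a, which dampens chromosome oscillation, at 0.33 ± 0.05. Of 10 checkpoint proteins 3 fell and 2 rose, and Mad2l1, the Mad2 protein that inhibits Cdc20, was at -0.60 ± 0.05. Of 18 centromere genes 6 fell and 2 rose, with Hjurp, the chaperone of Cenpa, at -0.49 ± 0.04 and Cenpb at 0.48 ± 0.05. The anaphase-promoting complex was the list with more rises than falls, 6 against 3 of 17, with Anapc2 at 0.44 ± 0.05 and Anapc1 at 0.30 ± 0.04, both on chromosome 2. The values of this and the next paragraph were taken without the offsets by chromosome or neighbours. The chromosome pattern given above is thus part of them, and how large a part was not tested.

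Of the remaining lists, cohesin and separase had 6 lower and 2 higher of 13, the outer kinetochore 4 lower and 2 higher of 9, and spindle and centrosome genes 8 lower and 5 higher of 16. The switch of G2/M entry had 7 lower and 3 higher of 13, with Melk, a kinase of dividing cells, at -0.46 ± 0.05 and Ensa, an inhibitor of the phosphatase PP2A, at 0.43 ± 0.05. Regulators of mitotic genes had 7 lower and 4 higher of 21. Mybl2, the B-Myb protein that works with MuvB beside Foxm1, was at -0.01 ± 0.05 (adjusted p = 0.943), and E2f4, the E2F of the DREAM complex, was at -0.52 ± 0.04 (adjusted p = 5.17e-07). Of 40 genes of DNA replication, which act in S phase, 25 fell and 3 rose, and Mcm3 of the replicative helicase was at -0.90 ± 0.04. Cdkn1a, which encodes the kinase inhibitor p21, had 3.65, 5.16 and 4.44 CPM in the KO-labelled cultures, against 11.9, 14.8 and 13.0 CPM in the VC-labelled cultures. Its log2 fold change was -1.59 ± 0.13 (adjusted p = 8.77e-07).

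The summed level of the 33 members was 6407, 6283 and 6239 CPM in the KO-labelled cultures, against 7305, 7237 and 6889.8 CPM in the VC-labelled cultures, so every KO-labelled sum lay below every VC-labelled one. Divided by the summed level of the 40 replication genes, it was 1.71, 1.67 and 1.65 in the KO-labelled cultures, against 1.64, 1.65 and 1.58 in the VC-labelled cultures. Mitotic genes were thus not lower relative to replication genes. Epithelial markers fixed as a check of the label, such as Epcam and Krt8, summed to 2870.2 to 2943 CPM in KO-labelled and 2714 to 3036 CPM in VC-labelled cultures, while T cell, B cell, neutrophil, endothelial and adipocyte markers each summed to at most 1.23 CPM in every culture. Pan-immune markers were higher in KO-labelled cultures, at 89.98 to 94.9 CPM, against 55.00 to 63.6 CPM in VC-labelled cultures, where 1 of the 5 passed the filter on low counts and was called higher. Skeletal muscle markers summed to 12.9 to 13.7 CPM in KO-labelled and 15.4 to 16.8 CPM in VC-labelled cultures, and erythroid markers to 1.63 to 3.36 CPM in KO-labelled and 1.35 to 2.36 CPM in VC-labelled cultures. The part of these differences in the levels of the members was not tested.

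In tumors, no member passed the test between the labels. In edgeR 0 of 33 were called and 0 had an unadjusted p under 0.05; DESeq2 and limma-voom also called 0 members. Over all 17153 genes tested edgeR called 0 (0%), and 956 had an unadjusted p under 0.05 in edgeR. DESeq2, run without the filter on low counts, called 69 of 28172 genes (0.245%). The log2 fold change was above 0 for 32 of 33 members, against 52.7% of all genes, with a median of 0.35 over the members and 0.02 over all genes. Groups overlapped for all 33 members, whereas 4.96% of all genes lay wholly above and 5.43% wholly below in the KO-labelled tumors. The SE of a member ran from 0.25 to 0.51 on the log2 scale, so differences of the size seen for most members in culture were not detectable.

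Mki67 had the largest fold change between tumors. It had 249, 421 and 768 CPM in KO-labelled tumors KO_8454, KO_8455 and KO_8459, against 391, 179 and 259.8 CPM in VC-labelled tumors VC_8447, VC_8448 and VC_8451. Tumor KO_8459 was the highest and tumor KO_8454 lay within the VC-labelled range, and the log2 fold change of 0.81 ± 0.43 did not pass (adjusted p = 0.861). Birc5 had 21.4, 36.9 and 42.8 CPM in KO-labelled tumors KO_8454, KO_8455 and KO_8459, against 29.3, 11.9 and 26.7 CPM in VC-labelled tumors VC_8447, VC_8448 and VC_8451, a log2 fold change of 0.59 ± 0.38 (adjusted p = 0.87). Ccnb2 had 13.7, 28.98 and 39.6 CPM in KO-labelled tumors KO_8454, KO_8455 and KO_8459, against 25.5, 12.4 and 18.5 CPM in VC-labelled tumors VC_8447, VC_8448 and VC_8451, a log2 fold change of 0.56 ± 0.41 (adjusted p = 0.882). In all 3 of these genes tumor KO_8454 lay below tumor VC_8447. Cenpf was the member with a negative fold change, at 95.8, 184 and 213 CPM in KO-labelled tumors KO_8454, KO_8455 and KO_8459, against 261, 90.9 and 176 CPM in VC-labelled tumors VC_8447, VC_8448 and VC_8451. Its log2 fold change was -0.09 ± 0.41 (adjusted p = 0.979), and it was positive without KO_8454 (0.18) or VC_8447 (0.27). Foxm1, the largest difference in culture, had 14.5, 34.4 and 45.6 CPM in KO-labelled tumors KO_8454, KO_8455 and KO_8459, against 34.2, 28.9 and 24.8 CPM in VC-labelled tumors VC_8447, VC_8448 and VC_8451, a log2 fold change of 0.12 ± 0.38 (adjusted p = 0.969), which was -0.27 without KO_8459. Over the other 28 members the log2 fold changes ran from 0.17 in Cdc20 to 0.54 in Kif11.

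Regulators of mitotic entry overlapped in the same way. Ccnb1 had 7.75, 15.1 and 16.1 CPM in KO-labelled tumors KO_8454, KO_8455 and KO_8459, against 14.6, 6.48 and 10.1 CPM in VC-labelled tumors VC_8447, VC_8448 and VC_8451, a log2 fold change of 0.34 ± 0.38 (adjusted p = 0.923). Cdk1 had 45.3, 75.8 and 81.6 CPM in KO-labelled tumors KO_8454, KO_8455 and KO_8459, against 63.03, 41.3 and 47.7 CPM in VC-labelled tumors VC_8447, VC_8448 and VC_8451, a log2 fold change of 0.43 ± 0.25 (adjusted p = 0.861). Kif23 had 26.4, 59.7 and 69.9 CPM in KO-labelled tumors KO_8454, KO_8455 and KO_8459, against 39.7, 30.6 and 40.3 CPM in VC-labelled tumors VC_8447, VC_8448 and VC_8451, a log2 fold change of 0.50 ± 0.34 (adjusted p = 0.876). In each of these genes the KO-labelled tumors held both one of the lowest and the highest value. Nusap1 had 30.6, 41.5 and 57.4 CPM in KO-labelled tumors KO_8454, KO_8455 and KO_8459, against 59.00, 17.5 and 35.3 CPM in VC-labelled tumors VC_8447, VC_8448 and VC_8451, with a log2 fold change of 0.23 ± 0.42 (adjusted p = 0.944). Anln had 80.8, 266 and 218 CPM in KO-labelled tumors KO_8454, KO_8455 and KO_8459, against 156, 189 and 115 CPM in VC-labelled tumors VC_8447, VC_8448 and VC_8451, and there tumor KO_8454 was the lowest of the 6 tumors and tumor KO_8455 the highest.

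The members were high or low together from tumor to tumor. Tumor KO_8459 was the highest of the 6 for 27 members, tumor VC_8447 for 4 and tumor KO_8455 for 2. Tumor VC_8448 was the lowest for 26 members and tumor KO_8454 for 7, and tumor KO_8454 was the lowest or the second lowest for all 33. The summed level of the members was 1342, 2702 and 3369.6 CPM in KO-labelled tumors KO_8454, KO_8455 and KO_8459, against 2618, 1279.6 and 1852 CPM in VC-labelled tumors VC_8447, VC_8448 and VC_8451. Each label thus had a low tumor, KO_8454 and VC_8448, whose sums were close to each other. The share of counts on ribosomal, small nucleolar, small nuclear and miscellaneous RNA genes was 5.10%, 2.95% and 2.93% in KO-labelled tumors KO_8454, KO_8455 and KO_8459, against 2.31%, 4.06% and 5.82% in VC-labelled tumors VC_8447, VC_8448 and VC_8451. It was thus higher in the 3 tumors with the lowest sums of the members than in the other 3, and its part in the level of the members was not tested. Relative to the summed level of the replication genes it was 1.25, 1.79 and 1.88 in those KO-labelled tumors, against 1.75, 0.988 and 1.53 in those VC-labelled tumors. The median fold change of the members depended on single tumors: it was 0.08 without KO_8459, 0.10 without VC_8448, 0.61 without KO_8454 and 0.64 without VC_8447, and no member passed in any of these. Without KO_8454, 10 members had an unadjusted p under 0.05 in edgeR, as did 2250 of all 17098 genes tested. Tumor KO_8459 also stood apart in immune markers, with 1206 CPM summed over the B and plasma cell markers, against 4.12 and 26.8 CPM in the other KO-labelled tumors and 1.32 to 7.64 CPM in the VC-labelled tumors. Its pan-immune markers summed to 1081 CPM, against 402 and 517 CPM in the other KO-labelled tumors and 329 to 552 CPM in the VC-labelled tumors. The part of these cells in the level of the members was not tested.

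**Figure D4:**
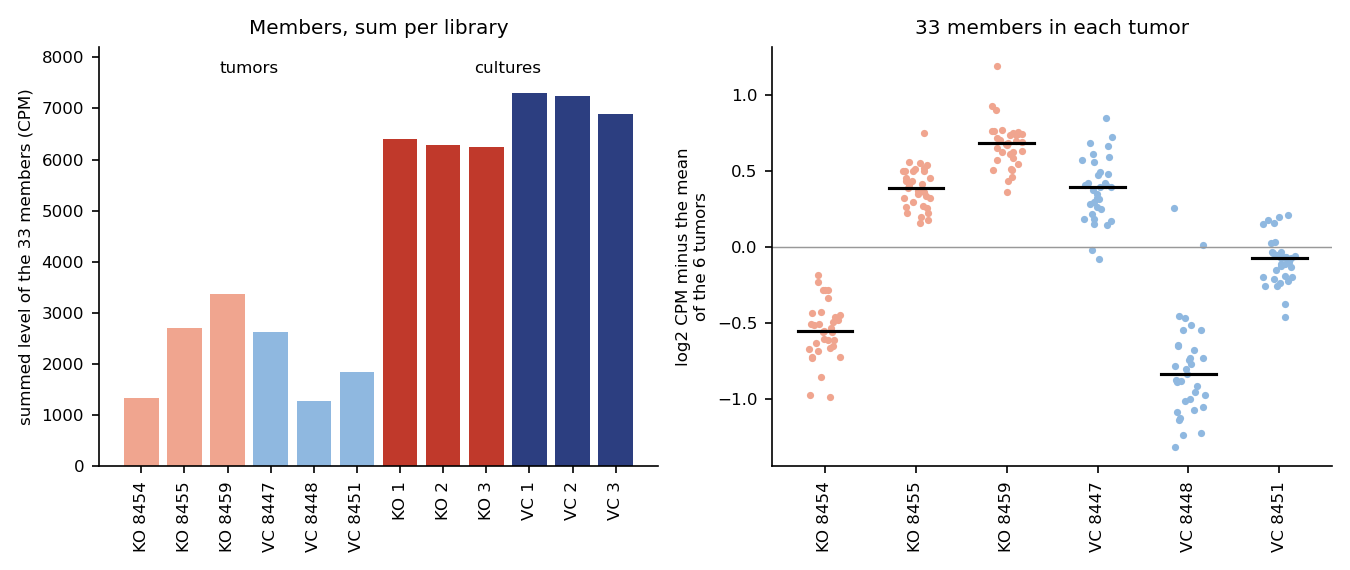
Left, summed level of the 33 members in each of the 12 libraries in CPM. Right, log2 CPM of each member minus its mean over the 6 tumors, 1 mark per member, with a line at the median of each tumor. Tumors of both labels lie between 1279.6 and 3369.6 CPM and cultures between 6239 and 7305 CPM, and within tumors most members move up or down together, with KO_8459 the highest and VC_8448 and KO_8454 the lowest.

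Tumors differed from cultures in nearly every member. VC-labelled tumors were lower than VC-labelled cultures in 33 of 33 members (edgeR, adjusted p under 0.05), where 29.5% of all 17123 genes tested were lower, and KO-labelled tumors were lower than KO-labelled cultures in 32 of 33, where 26% of 17311 genes were lower. The groups did not overlap for all 33 members under either label, against 33.7% of all genes wholly lower in each. The median log2 fold change of the members was -1.49 for the KO label, where it was 0.13 over all genes, and -2.14 for the VC label, where it was 0.07. Growth in an animal, host cells, flash freezing and any difference between the sequencing runs of the 2 tables cannot be told apart here. In bulk RNA, fewer dividing cells and less RNA per cell also cannot be told apart.

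Ccnb2 had the largest fall under both labels. Its mean was 27.4 ± 13.01 CPM in KO-labelled tumors, against 139 ± 2.61 CPM in KO-labelled cultures (SD, n = 3 each), a log2 fold change of -2.30 ± 0.35 (edgeR, adjusted p = 0.00141). In VC-labelled tumors it was 18.8 ± 6.56 CPM, against 132 ± 7.38 CPM in VC-labelled cultures (SD, n = 3 each), a log2 fold change of -2.84 ± 0.22 (edgeR, adjusted p = 2.2e-05). Plk1 had log2 fold changes of -1.87 ± 0.33 for the KO label and -2.59 ± 0.31 for the VC label. Its 6 tumors held 9.15, 21.6 and 25.2 CPM in the KO-labelled and 22.3, 7.79 and 13.8 CPM in the VC-labelled group. Aurka had 11.05, 16.2 and 22.5 CPM in KO-labelled tumors KO_8454, KO_8455 and KO_8459, against 19.9, 5.40 and 13.7 CPM in VC-labelled tumors VC_8447, VC_8448 and VC_8451, and its log2 fold changes over cultures were -1.90 ± 0.24 for the KO label and -2.42 ± 0.36 for the VC label. Both kinases were thus at or under 25.2 CPM in every tumor and at or over 63.3 CPM in every culture. Foxm1 had log2 fold changes of -1.64 ± 0.37 for the KO label and -2.60 ± 0.12 for the VC label, and its VC-labelled tumors were close together at 34.2, 28.9 and 24.8 CPM.

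Genes of mitotic entry fell under both labels. Ccnb1 had log2 fold changes of -1.76 ± 0.26 for the KO label and -2.41 ± 0.24 for the VC label. Cdk1 had -1.46 ± 0.21 for the KO label and -1.85 ± 0.15 for the VC label, and Ccna2 had -1.45 ± 0.27 for the KO label and -1.85 ± 0.25 for the VC label. These are values of comparisons with no library in common. The smallest falls under the VC label were those of Cenpe at -1.21 ± 0.27, Incenp at -1.26 ± 0.17 and Nusap1 at -1.28 ± 0.35. Under the KO label the smallest were Mki67 at -0.83 ± 0.37, Cenpe at -0.93 ± 0.31, Incenp at -0.95 ± 0.22 and Cenpf at -1.09 ± 0.27. Cenpe and Incenp, a motor and a scaffold of chromosome attachment, were thus among the least lowered members under both labels. Per kilobase of exon, Mki67 was the most abundant member in KO-labelled tumors at a mean of 47.6 CPM per kilobase, and Top2a in VC-labelled tumors at 35.6.

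Mki67 was the member that did not pass under the KO label (adjusted p = 0.0903), although its highest KO-labelled tumor, at 768 CPM, lay below its lowest KO-labelled culture, at 864 CPM. It passed without tumor KO_8459 (log2 fold change -1.43, adjusted p = 0.00464), in DESeq2 (adjusted p = 0.0429) and in limma-voom (adjusted p = 0.0476). Cenpe lost its call under the KO label without KO-labelled culture 1, 2 or 3 (adjusted p = 0.0934, 0.0788 and 0.0815) or tumor KO_8455 (0.0700), and with the size factors of DESeq2 in edgeR (0.0513) or a stricter filter (0.0648). Top2a lost its call without the same libraries (0.0699, 0.0632, 0.0661 and 0.0749). No other member lost its call when 1 library was left out under either label.

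**Figure D5:**
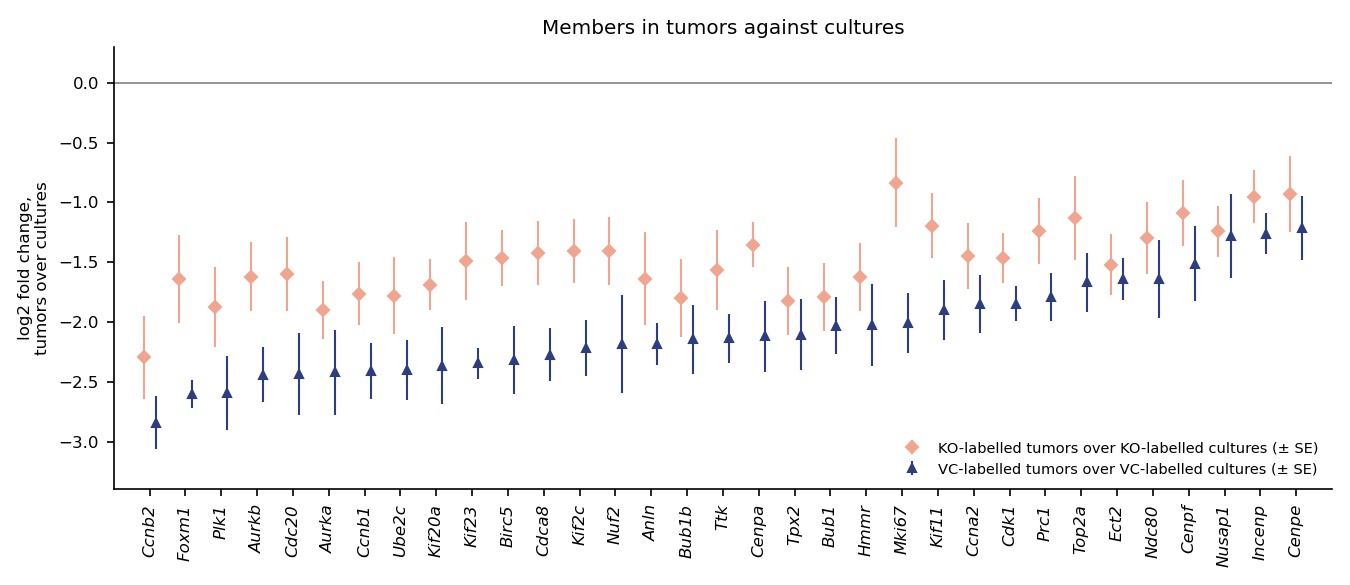
Log2 fold change of tumors over cultures with its SE for each of the 33 members, for the KO label and the VC label. All values lie below 0, between -0.83 and -2.30 for the KO label and between -1.21 and -2.84 for the VC label.

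Other mitotic lists were lower in tumors as well. Of the 134 further genes, 101 were lower and 8 higher in KO-labelled tumors, and 105 lower and 8 higher in VC-labelled tumors. Of all genes tested, 26% were lower and 35.3% higher for the KO label, and 29.5% lower and 35.7% higher for the VC label. All 9 outer kinetochore genes and all 9 other mitotic kinesins and partners were lower under both labels, with Kif18b at -1.71 ± 0.24 for the KO label and -2.36 ± 0.18 for the VC label. Condensin had 7 of 8 genes lower under the KO label and 8 of 8 under the VC label, and Ncapg2 was at -1.73 ± 0.29 for the KO label and -2.19 ± 0.13 for the VC label. The anaphase-promoting complex had 11 of 17 genes lower and 1 higher under the KO label and 10 lower and 2 higher under the VC label, and list medians of -0.51 for the KO label and -0.38 for the VC label. Regulators of mitotic genes were split, with 9 lower and 3 higher of 21 under the KO label and 10 lower and 2 higher under the VC label. Mybl2 was at -2.40 ± 0.42 for the KO label and -3.03 ± 0.18 for the VC label (adjusted p = 0.00277 and 5.91e-06), and Rb1, the retinoblastoma protein that restrains E2F, was at 1.42 ± 0.17 for the KO label and 1.53 ± 0.25 for the VC label (adjusted p = 0.000613 and 0.000872). Replication genes were lower in 38 of 40 under the KO label and in 40 of 40 under the VC label.

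Genes that hold back the cycle were split. Of 10 inhibitors of cyclin-dependent kinases and markers of resting cells that could be tested, 6 were higher and 1 lower in KO-labelled tumors, and 6 were higher and 2 lower in VC-labelled tumors. Over all genes tested, 35.3% were higher and 26% lower for the KO label, and 35.7% higher and 29.5% lower for the VC label. Cdkn2c, which encodes the kinase inhibitor p18, was lower under both labels, at -0.46 for the KO label and -1.02 for the VC label, and Cdkn2d of the same family was at -0.36 (adjusted p = 0.28) for the KO label and -1.01 (adjusted p = 0.000427) for the VC label. Cdkn1a was at 2.39 ± 0.43 on the log2 scale for the KO label and 0.80 ± 0.20 for the VC label (adjusted p = 0.00291 and 0.00909). Btg2, an antiproliferative gene that p53 induces, was at 2.75 ± 0.38 for the KO label and 2.36 ± 0.25 for the VC label, and Ccng2, a cyclin of resting cells, at 1.13 ± 0.10 for the KO label and 1.54 ± 0.09 for the VC label.

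Markers of fibroblasts and of macrophages and monocytes moved with the same contrast. Over all genes tested, 35.3% were higher for the KO label and 35.7% for the VC label. Fibroblast markers summed to 3537 to 6637 CPM in KO-labelled tumors and 2394 to 3845 CPM in VC-labelled tumors, against 19 to 19.8 CPM in KO-labelled cultures and 27.0 to 30.3 CPM in VC-labelled cultures, and 8 of 8 were called higher for the KO label and 7 of 8 for the VC label. Dcn, Lum and Dpt of that list were at 0 in every culture. Macrophage and monocyte markers summed to 1088 to 2323 CPM in KO-labelled tumors and 776 to 1639 CPM in VC-labelled tumors, against 36.1 to 38.3 CPM in KO-labelled cultures and 46.1 to 49.2 CPM in VC-labelled cultures; 10 of 10 were higher for the KO label and 9 of 10 for the VC label, and Adgre1 and Ms4a7 were at 0 in every culture. Epithelial markers summed to 1634 to 1871 CPM in KO-labelled tumors and 1772 to 2163 CPM in VC-labelled tumors, sums that lay below those of every culture. The sums of the skeletal muscle markers overlapped for the KO label, at 6.51 to 31.4 CPM in tumors and 12.9 to 13.7 CPM in cultures. For the VC label they were 17.8 to 57.1 CPM in tumors and 15.4 to 16.8 CPM in cultures. The part of host RNA in the lower mitotic levels was not tested.

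Whether the difference between labels was another in tumors than in culture was tested directly over all 12 libraries. No member passed, and 3 of 33 had an unadjusted p under 0.05 in edgeR, as did 2831 of all 18419 genes tested. Of all genes tested 2.05% were called, 1.13% higher and 0.912% lower. The difference of log2 fold changes, tumor minus culture, was above 0 for 32 of 33 members, against 52.6% of all genes, with a median of 0.50 over the members and 0.03 over all genes. Mki67 had the largest, at 1.12 ± 0.48 (unadjusted p = 0.0387 and adjusted p = 0.288 in edgeR), from a log2 fold change of 0.81 between tumors and -0.32 between cultures. Foxm1 followed at 0.91 ± 0.40 (adjusted p = 0.306) and Kif23 at 0.80 ± 0.37 (adjusted p = 0.324). Nusap1 was the member below 0, at -0.02 ± 0.46 (adjusted p = 1).

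This result turned on tumor KO_8454. Calls over all genes did so too: without it 4.18% of 19120 genes tested were called higher and 4.12% lower, and 24.4% had an unadjusted p under 0.05. In that fit 5 members passed, all higher, and 20 had an unadjusted p under 0.05. Those that passed were Foxm1 at 1.25 ± 0.18 (adjusted p = 0.00291, edgeR), Kif23 at 1.11 ± 0.17 (0.00395), Anln at 0.85 ± 0.21 (0.0301), Cdca8 at 1.06 ± 0.28 (0.0385) and Mki67 at 1.43 ± 0.39 (0.0449). The lone omission of any other library left 0 members past the threshold, and without tumor KO_8459 the median of the members was 0.28. The culture fold changes within this difference carry the chromosome pattern given above, with Nusap1 on chromosome 2 and Foxm1 on chromosome 6.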

How the data were processed

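RNA sequencing counts were examined for 6 culture and 6 tumor libraries of 4T1 cells. The authors deposited 2 tables of raw counts per gene (39017 genes each), made from the mm10 genome with STAR 2.3.0e, featureCounts 1.4.4 and Trimmomatic 0.32, per the submitters' processing notes; settings, annotation release and strand mode are not given in the sources used here. The labels' protocols name a KAPA kit with depletion of ribosomal RNA.

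Counts were tested in R 4.3.3 with the quasi-likelihood test of edgeR 4.0.16, with TMM scaling, filterByExpr at its defaults and Benjamini-Hochberg adjustment over all genes tested, and genes with an adjusted p below 0.05 were called. Separate fits were made for cultures and for tumors, tumors were set against cultures within each label, and the difference of the label effects was fitted over all 12 libraries. SE is the absolute log2 fold change divided by the square root of the F statistic. limma 3.58.1 (voom) and DESeq2 1.42.0 were alternatives, beside other scaling, filters and thresholds, omission of each library, a replicate block, thinning to the smallest library, and offsets by the median of a gene's chromosome or of its 24 nearest genes (mean log2 CPM of at least 3). Fits were tested on simulated data. Over the members, the median counting error of a count was 4.59% in KO-labelled and 7.14% in VC-labelled tumors, and 2.04% in KO-labelled and 2.10% in VC-labelled cultures. The median spread between libraries was well above this in tumors and close to it in KO-labelled cultures (2.46%). Replicates differed by more than sampling noise, with a chi-square per degree of freedom of 3.31 to 68.9 between pairs.

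GENCODE M21 gave GRCm38 positions for 37607 of the 39017 Ensembl IDs. Promoters are from RefSeq (GRCm38.p6), and both forms of the CHR and CCAAT were searched on both strands; TTTAAA reads the same on both. The members, the pathway and marker lists and the tests were chosen with earlier results of these data known. All 33 members could be named; values per library were to be given for Foxm1, Mki67, Ccnb1, Cdk1, the 4 largest rises and falls in culture, the 3 largest changes each way in the other comparisons, and members whose call moved with the chromosome offset. Values of further members in culture were added. Pathway genes were named from the 3 called members of smallest p per list and comparison; Kif18b, Cenpb, Mybl2, Rb1, Btg2 and Ncapg2 are named for both labels where either met this, and E2f4, Ensa, Smc2 and Anapc1 by it. Cdkn2c and Cdkn2d were named after their values were seen. No count column was left unmapped.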

Additional observations from a re-analysis of the deposited data

How the results depend on the processing

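In culture, 7 members rose and 17 fell. With all 12 libraries in 1 fit, 0 rose and 0 fell, where 663 of 18419 genes tested rose and 838 fell. That fit takes its spread from the tumors too. With the chromosome median taken out 0 rose, and with the neighbour median taken out 1 rose. Leaving out 1 library gave 6 to 8 higher and 14 to 19 lower. Fold changes in culture turned negative with the chromosome median out for Bub1 (-0.0728), Bub1b (-0.0807), Ccna2 (-0.13), Cdk1 (-0.0397), Cenpe (-0.17), Ect2 (-0.15) and Tpx2 (-0.10), and with the neighbour median out for Bub1b (-0.11), Ccna2 (-0.12), Ccnb2 (-0.0329), Cdk1 (-0.14), Cenpe (-0.22), Ect2 (-0.22), Nusap1 (-0.0023) and Tpx2 (-0.0734). In tumors, 0 members were called under every alternative run. Cenpf was at 0.0225 with the neighbour median out, and at -0.40 to 0.27 with 1 library left out. Foxm1 was at -0.0168 in limma-voom, at -0.36 without tumors VC_8451 and KO_8459, and at -0.27 to 0.46 with 1 library left out. In the test of the difference between tumor and culture, 0 to 5 members were called higher and 0 lower with 1 library left out. Nusap1 there was at 0.0048 with the size factors of DESeq2 in edgeR, at 0.16 in limma-voom, and at -0.37 to 0.44 with 1 library left out. Tumors against cultures gave 33 lower members in every omission for the VC label and 30 to 33 for the KO label. The cause of these changes was not tested.

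Equal replicate numbers of the cultures did not pair them: the deviations of same-numbered libraries correlated at -0.157, 0.0403 and 0.0828 over 10664 genes. A replicate block gave 7 higher and 16 lower members in culture, with the call of Ttk lost (adjusted p = 0.0585), and no block could be set for tumors, whose numbers are shared by no libraries. With libraries thinned to the smallest total, 0 members were called between tumors, with a median of 0.33. In the test of the difference between tumor and culture, thinning left 46 genes called higher and 37 lower, against 209 higher and 168 lower at full depth.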
